A study of Saccharomyces cerevisiae with 14 samples.

Results

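YFL012W, YMR244W, YGL138C and YDR042C are 4 protein-coding genes of Saccharomyces cerevisiae that carry only a systematic name in the reference annotation, which records no function for them. They were chosen by their rise in cells lacking NPT1 or in cells grown with nicotinamide, so their values in those conditions are a description and carry no test. Each is measured by 1 probe set of its own (1769515_at, 1778404_at, 1769531_at and 1777923_at), none of which is marked as also matching a near-identical gene. They are 4 of 5449 genes measured and 4 of the 499 measured genes known only by a systematic name.

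Transcripts were measured on 14 Affymetrix Yeast Genome 2.0 arrays, 1 per culture, from cells in log phase in rich YPD medium, with 2 cultures in each of 7 groups. All groups share a MATa background with the alleles his3D200, leu2D1, met15D0, trp1D63 and ura3-167. In 4 groups a single gene was replaced by the kanMX4 cassette (npt1Δ, pnc1Δ, bna1Δ and tna1Δ), another group was the wild type grown with 5 mM nicotinamide, and the untreated wild type is represented by pairs coded ML1 and ML8. The labels do not say whether the cultures of a strain came from separate isolates, so the errors measure the spread between cultures.

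NPT1 and PNC1 encode salvage enzymes that return nicotinic acid and nicotinamide to NAD+, BNA1 acts in synthesis of NAD+ from tryptophan, and TNA1 imports nicotinic acid. Sirtuins such as Sir2 and Hst1 use NAD+ to remove acetyl groups from proteins, and nicotinamide, a product of that reaction, inhibits them. Hst1 works with the DNA-binding protein Sum1 and the linker Rfm1 to keep many middle sporulation genes silent in vegetative cells, and Ndt80 activates those genes during meiosis. YMR244W is grouped by sequence with the SUN family of cell wall proteins. No biochemical role is established for the other members.

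Median signal per array was 9.75 to 9.84 (log2), and 97.5 to 98.5% of the probe sets lay above the background limit. That limit is the 95th percentile of 1746 probe sets whose gene is not in the S. cerevisiae reference, and it was 2.22 to 2.26 (log2) on the 14 arrays. NPT1 had a signal of 2.18 and 2.19 in npt1Δ, against 12.34 to 12.54 in wild type, and PNC1 had 2.17 and 2.18 in pnc1Δ, against 11.67 to 12.22. BNA1 had 1.98 and 1.89 in bna1Δ, against 9.45 to 9.99 in wild type, and TNA1 had 2.08 and 2.28 in tna1Δ, against 12.26 to 12.61. Each strain thus matched its label. The signals are log2 values as deposited, and levels are not compared between probe sets.

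YFL012W was close to background in 5 groups and high in npt1Δ and nicotinamide. Its signal was 8.05 and 7.90 (log2) on the npt1Δ arrays, 8.50 and 8.78 in nicotinamide, and 2.44, 2.44, 2.48 and 2.40 in wild type. Neither condition overlapped the wild type, and both nicotinamide arrays lay above both npt1Δ arrays. The difference from wild type was 5.54 ± 0.07 (log2, SE of the limma contrast, 2 arrays against 4) in npt1Δ, or 46.4-fold, and 6.20 ± 0.07 in nicotinamide, or 73.5-fold. The wild-type mean exceeded 99.1% of the probe sets without a reference gene, so the gene lay just above the background limit there, and the folds depend on that low value. As RNA came from whole cultures, a rise in every cell and a rise in some of the cells cannot be told apart.

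YMR244W showed the same 2 high groups without the excess in nicotinamide. Its signal was 8.05 and 7.72 (log2) in npt1Δ and 7.90 and 7.47 in nicotinamide, against 2.01, 2.02, 2.01 and 2.02 in wild type. The ranges of npt1Δ and nicotinamide overlapped, and YMR244W was the only one of the 4 genes with a lower mean in nicotinamide than in npt1Δ. All 4 wild-type arrays lay below background, and their mean exceeded 37.1% of the probe sets without a reference gene. YMR244W was therefore at least 49.99-fold higher in npt1Δ and at least 43.5-fold higher in nicotinamide than wild type.

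YGL138C separated the 2 conditions most. Its signal was 4.26 and 3.30 (log2) in npt1Δ and 6.58 and 7.85 in nicotinamide, against 2.19, 2.22, 2.19 and 2.23 in wild type, where every array lay below background. The groups did not overlap. YGL138C was at least 2.90-fold higher in npt1Δ and at least 31.3-fold higher in nicotinamide than wild type. Its cultures also differed from each other: array A minus array B was 0.96 in npt1Δ and -1.27 in nicotinamide, gaps wider than those of 99.1% and 99.4% of all tested probe sets. Without array A of npt1Δ the fitted rise there was 1.09 and without array B it was 2.05, against 1.57 ± 0.31 with both. These fitted values use wild-type signals below background, and the lower bound with both arrays was 1.53.

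YDR042C was the one gene with clear signal in wild type and the one that differed in pnc1Δ. Its signal was 8.50 and 8.57 (log2) in npt1Δ, 8.94 and 9.23 in nicotinamide, 7.73 and 8.002 in pnc1Δ, and 7.34, 7.12, 7.26 and 7.0 in wild type. These 4 conditions did not overlap, with nicotinamide highest and pnc1Δ between npt1Δ and wild type. The difference from wild type was 1.35 ± 0.12 (log2), or 2.55-fold, in npt1Δ and 1.90 ± 0.12, or 3.74-fold, in nicotinamide.

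**Figure D1:**
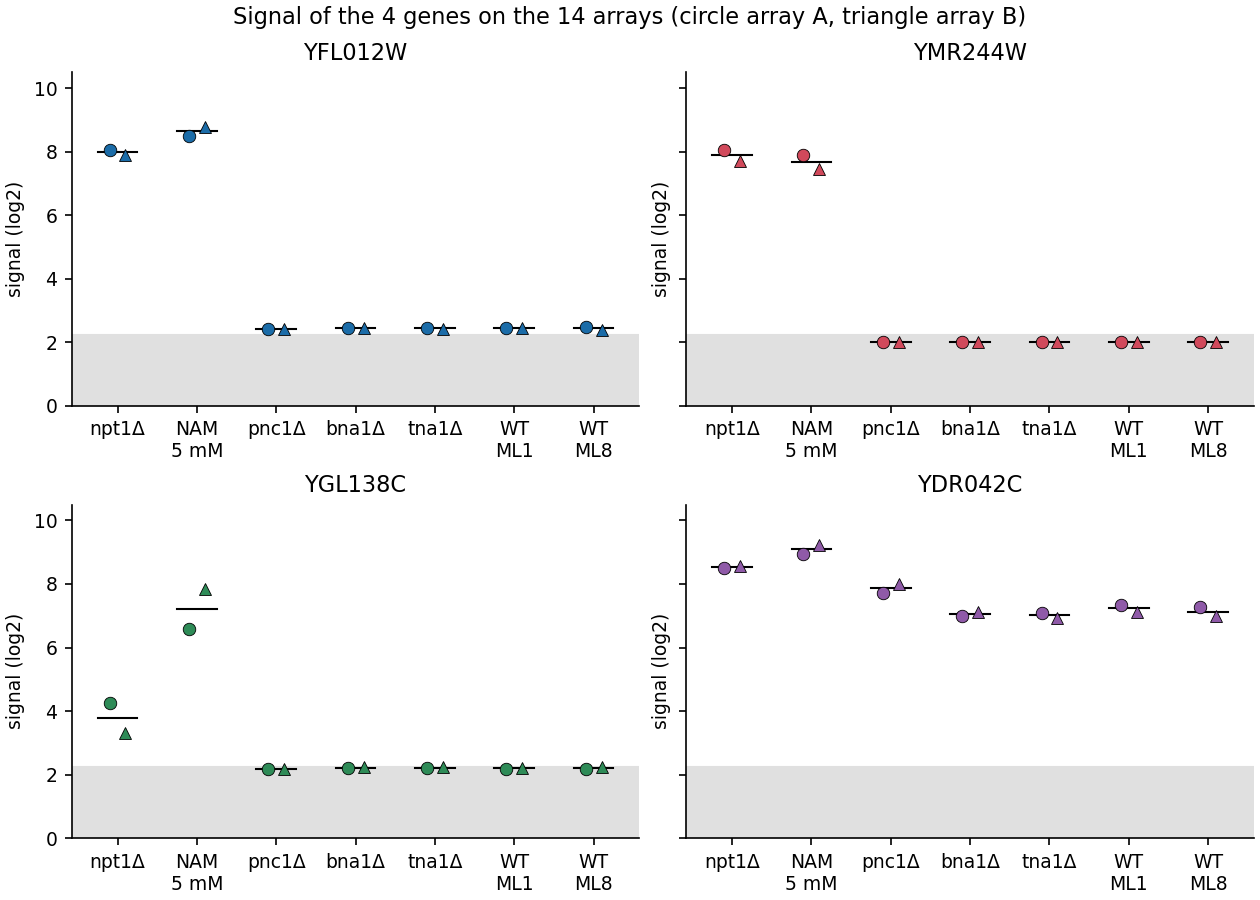
Signal (log2, vertical axis) of each gene on the 14 arrays, by group; circles are array A, triangles array B, bars the mean of 2 arrays, and the grey band the range below the mean background limit. YFL012W, YMR244W and YGL138C are high in npt1Δ and nicotinamide (NAM). Elsewhere YFL012W lies just above the band, and YMR244W and YGL138C lie within it. YDR042C has signal in every group and is also higher in pnc1Δ, at 7.73 and 8.002, than in wild type (WT).

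The pnc1Δ, bna1Δ and tna1Δ comparisons were not used to choose the genes, although they share the wild-type arrays with those that were. YDR042C rose in pnc1Δ by 0.69 ± 0.12 (log2, 1.61-fold, limma, adjusted p = 0.0162 over all 5498 probe sets), and both pnc1Δ arrays lay above all 4 wild-type arrays. It was 1 of 4 members called higher, where 0.818% of all probe sets were. Against the 4 arrays of bna1Δ and tna1Δ, none of which served to choose the genes, the difference was 0.83 ± 0.12 (adjusted p = 0.00322), a comparison added after the values were seen. The call was lost when only the pnc1Δ and wild-type arrays were fitted (adjusted p = 0.143), without pnc1Δ array A (adjusted p = 0.0594) or B (adjusted p = 0.157), and without array B of the ML1 pair (adjusted p = 0.0518). Adjusted p ranged from 0.00322 to 0.157 over all alternatives.

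YFL012W did not pass the test in pnc1Δ. It had 2.41 and 2.41 (log2) in pnc1Δ, a difference of -0.03 ± 0.07 from wild type (adjusted p = 0.905). YMR244W had 2.00 and 2.01 and YGL138C had 2.18 and 2.19 in pnc1Δ, all below background, as in wild type, so no fold is given. Any change below that limit was not detectable.

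None of the 4 genes was called in bna1Δ or tna1Δ, by limma's adjusted p or at an unadjusted p under 0.05, where 0.0182% of all probe sets were called in either direction in each strain. YDR042C had 7.004 and 7.12 (log2) in bna1Δ and 7.09 and 6.92 in tna1Δ, with differences from wild type of -0.12 ± 0.12 (adjusted p = 1) and -0.17 ± 0.12 (adjusted p = 0.79). Both strains overlapped the wild type. YFL012W had 2.46 and 2.46 in bna1Δ and 2.46 and 2.42 in tna1Δ, within 0.02 of the wild-type mean on average. YMR244W and YGL138C stayed below background in both strains, at 2.01 to 2.02 and 2.22 to 2.23, as in wild type. A change below that limit was not detectable.

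Direct comparison of bna1Δ with tna1Δ, and of wild-type pair ML1 with ML8, gave no call among the 4 genes and none at an unadjusted p under 0.05. YMR244W and YGL138C lay below background on all arrays compared, so for them a change below that limit was not detectable. In these comparisons 0.0364% and 0.0728% of all probe sets were called in either direction. YDR042C differed by 0.06 ± 0.14 (log2) between bna1Δ and tna1Δ (adjusted p = 0.931) and by 0.10 ± 0.14 between ML1 and ML8 (adjusted p = 0.748). YFL012W differed by 0.02 ± 0.09 (adjusted p = 0.98) and by 0.00 ± 0.09 (adjusted p = 0.998).

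Ordered by mean signal, nicotinamide came first for YFL012W, YGL138C and YDR042C, followed by npt1Δ, with the arrays of these groups apart for each gene. For YMR244W npt1Δ came first and overlapped nicotinamide. Among the lower groups of YFL012W, YMR244W and YGL138C, the group means lay at 2.41 to 2.46, 2.01 to 2.02 and 2.19 to 2.22 (log2), and neighbours in the order overlapped except bna1Δ and ML1 for YFL012W and ML1 and tna1Δ for YMR244W. For YDR042C, pnc1Δ came next, apart from both npt1Δ above it and ML1 below it, and ML1, ML8, bna1Δ and tna1Δ overlapped in turn.

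The size of the step between the 2 high groups differed by gene. The mean in nicotinamide minus that in npt1Δ was 3.43 (log2) for YGL138C, a 10.8-fold difference exceeded by 6 of 5498 tested probe sets. Leaving out 1 array moved it to 6.95-fold without nicotinamide array B, 7.75-fold without npt1Δ array B, 15.1-fold without npt1Δ array A and 16.8-fold without nicotinamide array A, settings added after the values were seen. The difference was 0.66 for YFL012W, exceeded by 190 probe sets, 0.55 for YDR042C, exceeded by 258, and -0.20 for YMR244W, which became 0.02 without nicotinamide array B, while the median of all tested probe sets was 0.02. These values use the arrays that served to choose the genes and were not tested.

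Among the 499 measured genes known only by a systematic name, 2 of the 4 headed both lists of rises. In npt1Δ, YMR244W was first and YFL012W was second (the third and the fourth among all probe sets), YGL138C was 16th and YDR042C was 20th. In nicotinamide, YFL012W, YMR244W and YGL138C took the first 3 places and YDR042C was again 20th. Over all probe sets, 3.56% were called higher in npt1Δ and 8.88% in nicotinamide, and no call is read for the 4 genes in these conditions, on which they were chosen.

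Of the 499 genes, 39 were called higher and 2 lower in npt1Δ, which is 7.82% higher, against 3.56% of all probe sets. In nicotinamide 89 were called higher and 31 lower, which is 17.8% higher, against 8.88% of all. These counts include the 4 genes, which were chosen for their rise in these conditions. The median difference of the 499 was 0.00 (log2) in npt1Δ, against -0.03 for all probe sets, and 0.04 in nicotinamide, against -0.00 for all. After YMR244W and YFL012W, the highest in npt1Δ were YDL114W, related to short-chain dehydrogenases, at 3.41 ± 0.06 (adjusted p = 1.05e-10), YOL163W, a member of the allantoate permease family, at 2.98, YFR012W-A at 2.67, YGL230C at 2.48, YCL021W-A at 2.20 and YAL063C-A at 2.16. In nicotinamide, after YFL012W, YMR244W and YGL138C, the highest were YOR365C at 3.80 ± 0.14 (adjusted p = 2.18e-08), YOL163W at 3.46, YFR012W-A at 3.21, YCL021W-A at 3.19 and YGL230C at 3.11.

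In pnc1Δ, 4 of the 499 were called higher and 13 lower. These are 0.802% and 2.61% of the 499, against 0.818% and 1.42% of all probe sets, so the share called higher was that of the background. YDR042C was the third of these 4, below YKL183C-A at 0.94 ± 0.15 (adjusted p = 0.00937) and YIL165C at 0.90 ± 0.12 (adjusted p = 0.00358), and above YPL245W at 0.44 ± 0.08 (adjusted p = 0.0248). The other 3, named here after their values were seen, did not share the pattern of YDR042C in npt1Δ, where they differed from wild type by -0.04, 0.08 and -0.11. In nicotinamide they differed by 0.19, -0.16 and 0.50. None of the 499 was called by limma in bna1Δ or tna1Δ, where 23 and 20 had an unadjusted p under 0.05.

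**Figure D2:**
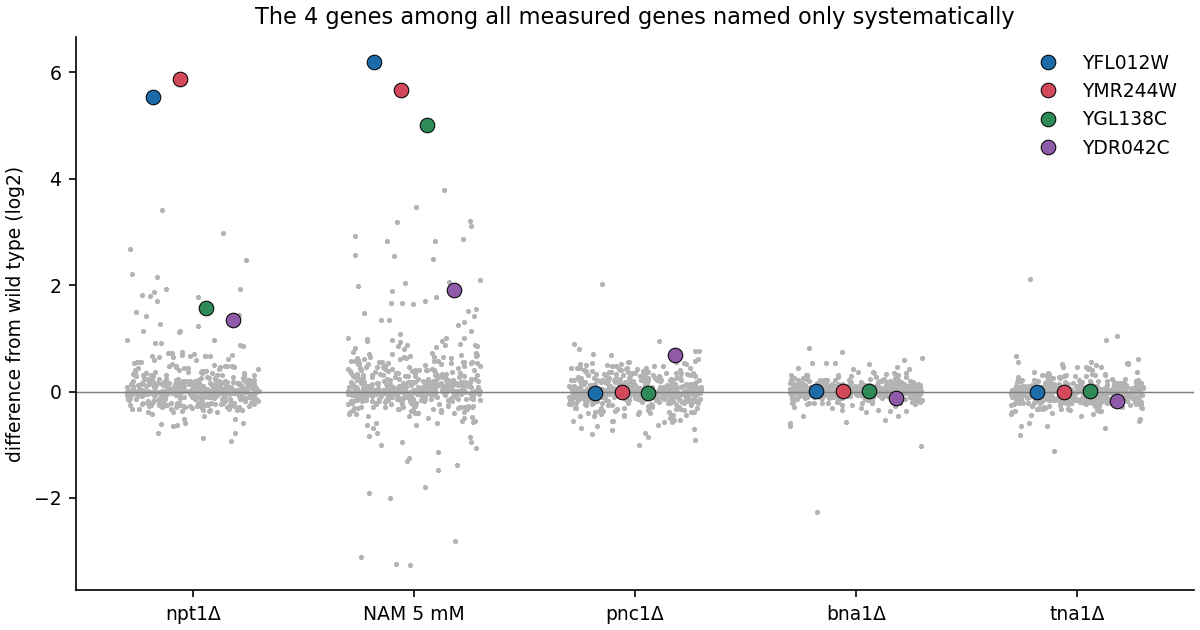
Difference from wild type (log2, vertical axis) in 5 conditions for the 499 measured genes known only by a systematic name; large coloured points are the 4 genes and small grey points the rest, spread sideways for legibility. The 4 genes lie above most others in npt1Δ and nicotinamide (NAM), YDR042C at 0.69 stands apart from the other 3 in pnc1Δ, and all 4 lie near 0 in bna1Δ and tna1Δ. YMR244W and YGL138C were below background in wild type, pnc1Δ, bna1Δ and tna1Δ, so their points in these 3 strains are not measured differences.

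The genes whose log2 signal correlated best with each member over the 14 arrays included genes of sporulation, nitrogen use, transport and NAD+ synthesis. YFL012W was most like DAL1, the allantoinase gene, at r = 0.9995, followed by the monopolin gene MAM1, the spore wall genes LDS2 and CDA1, and SPS22, which acts in spore wall formation, at r = 0.9978. YMR244W was most like LDS2 at r = 0.9982, followed by BNA2, which opens the route from tryptophan to NAD+, YDL114W, DAL1 and CDA1 at r = 0.9964. Of these 5, 3 in the set of YFL012W and 2 in that of YMR244W belong to the list of 40 middle sporulation genes. The share of that list among all genes compared is not given here, so these counts are only a description.

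YGL138C and YDR042C had other partners. YGL138C was most like ANS1, a predicted cell surface protein gene, at r = 0.9932, followed by YPR078C, the nitrogen repressor gene DAL80, SRL4 and YNR064C, at r = 0.9867, and none is in the middle sporulation list. YDR042C was most like the transporter gene YOL162W at r = 0.9673, followed by the seripauperin gene PAU4, the phosphate transporter gene PHO89, PAU3 and YCL021W-A at r = 0.9504. The probe sets of PAU4 and PAU3 can also match close relatives, so their values may mix several genes. The 5 partners of YDR042C differed from wild type by 0.15 to 0.65 (log2) in pnc1Δ, with none called by limma and 1 at an unadjusted p under 0.05. The pnc1Δ arrays entered the correlation that chose these partners. A likeness to YDR042C there is thus partly built in, and the values are a description.

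The partners were chosen by correlation over these arrays, so a likeness to YGL138C in npt1Δ and nicotinamide is built in, and their values there are a description. ANS1 was higher by at least 1.40 (log2) in npt1Δ and by at least 3.84 in nicotinamide, and SRL4 by at least 1.07 and at least 3.37. DAL80 was higher by at least 0.61 and at least 2.32, YPR078C by 0.66 and 2.09, and YNR064C by 0.85 and 2.87. Among the partners of YFL012W and YMR244W, MAM1 was at 4.84 ± 0.05 and 5.77 ± 0.05, BNA2 at 6.02 ± 0.13 and 5.97 ± 0.13, and YDL114W at 3.41 ± 0.06 and 2.93 ± 0.06. YDL114W and BNA2, like YMR244W, had a lower mean in nicotinamide than in npt1Δ, although the BNA2 values lay within their errors.

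These correlations describe 14 arrays that share 2 high groups and a common normalization, and they rest mainly on the npt1Δ and nicotinamide arrays. Of 523 genes whose group means spanned at least 1 (log2), 67 correlated above 0.95 with YFL012W, 56 with YMR244W, 24 with YGL138C and 5 with YDR042C. By Spearman's rank correlation 2 of the 20 places were filled by the same genes, and by the 7 group means 14 were. Among the 4 genes themselves r was 0.9948 between YFL012W and YMR244W, 0.9198 between YFL012W and YDR042C, and 0.8247 between YMR244W and YGL138C, the lowest of the 6 pairs.

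**Figure D3:**
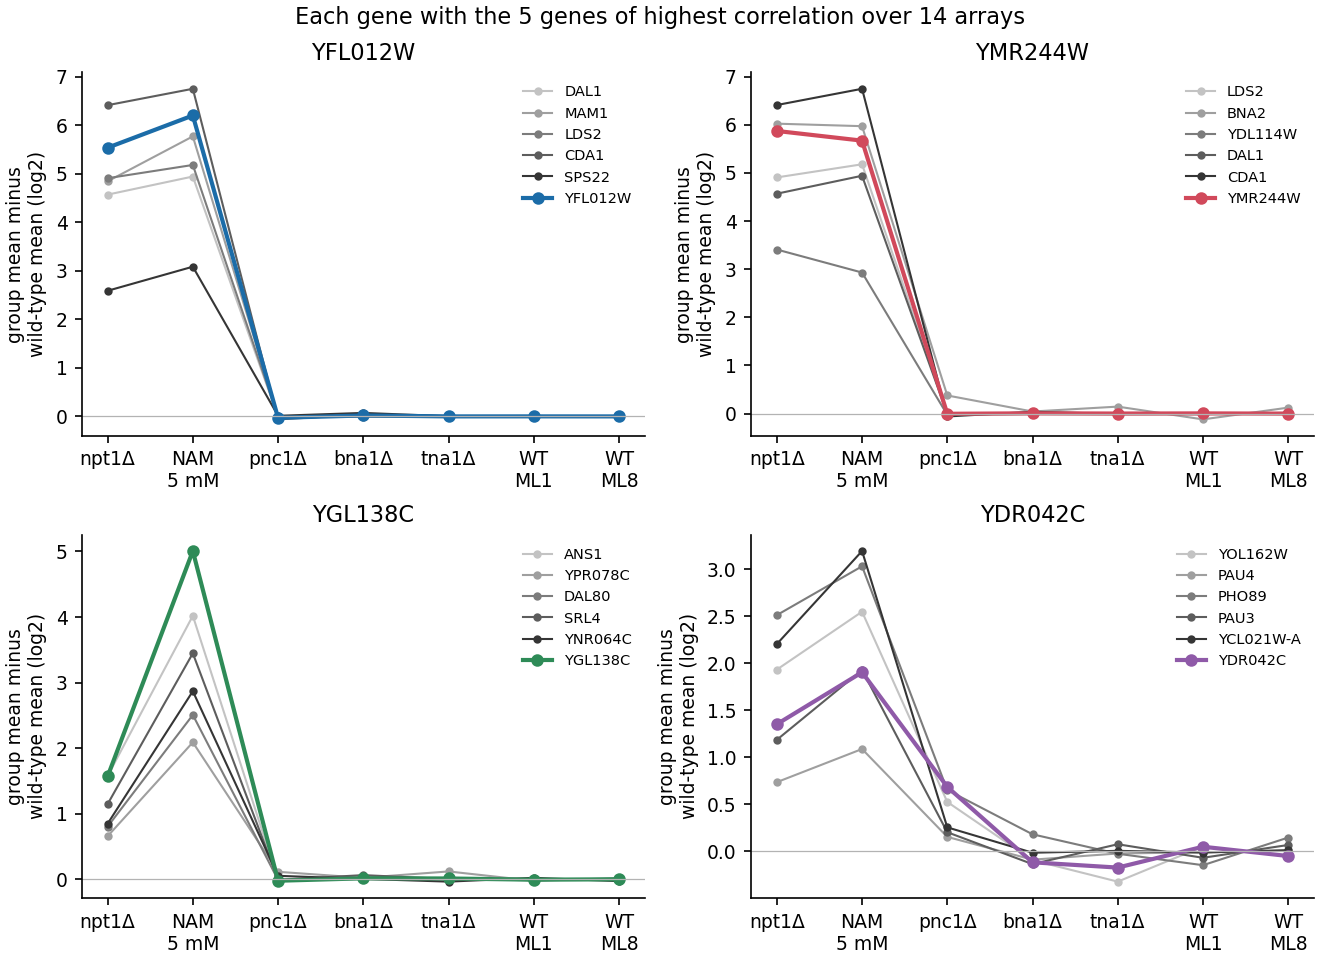
Group mean minus the mean of the 4 wild-type arrays (log2, vertical axis) in 7 groups for each gene (thick coloured line) and the 5 genes of highest Pearson correlation over 14 arrays (grey lines, lightest for the highest correlation); lines join categories only to guide the eye. YFL012W and YMR244W share a profile with CDA1, LDS2 and DAL1, YGL138C and its partners lie higher above wild type (WT) in nicotinamide (NAM) than in npt1Δ, and the partners of YDR042C, none of them called in pnc1Δ, lie at 0.15 to 0.65 there.

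Middle sporulation genes and their known regulators were counted in the same comparisons, and no value here places the 4 genes among them. Of 40 middle sporulation genes, limma called 24 higher and none lower in npt1Δ (60.0% higher, against 3.56% of all probe sets). In nicotinamide it called 31 higher and none lower (77.5% higher, against 8.88% of all probe sets). The median differences were 1.31 and 2.05 (log2), against -0.03 and -0.00 over all probe sets. Setting genes below background in wild type to their lower bound left both medians at these values. CDA1, the chitin deacetylase gene of the spore wall, rose by 6.41 ± 0.10 in npt1Δ (adjusted p = 1.3e-11) and by 6.75 ± 0.10 in nicotinamide (adjusted p = 7.48e-12). The septin gene SPR3 rose by 5.42 ± 0.18 and SPR2 by 5.40 ± 0.19 in nicotinamide, and MIP6 rose by 4.22 ± 0.19 in npt1Δ. In pnc1Δ none of the 40 was called higher and 1 was called lower, where 0.818% and 1.42% of all probe sets were. That gene was RRT8, which fell by 0.59 and is named here after its value was seen. Of the 40, 2 had an unadjusted p under 0.05 in pnc1Δ.

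Of 8 regulator genes, SUM1, RFM1, HST1, NDT80, IME1, IME2, UME6 and RIM4, only NDT80 was called by limma in npt1Δ and in nicotinamide. That is 12.5% called higher in each condition, against 3.56% and 8.88% of all probe sets, a share that 1 gene of 8 sets. NDT80, the meiotic activator, had 6.64 and 6.54 (log2) in npt1Δ and 6.77 and 6.79 in nicotinamide, against 6.06, 5.45, 5.82 and 5.66 in wild type, and both conditions lay above the wild-type range. It rose by 0.84 ± 0.18 in npt1Δ (adjusted p = 0.0236) and by 1.03 ± 0.18 in nicotinamide (adjusted p = 0.00257). SUM1 differed by -0.03 and -0.16, HST1 by -0.17 and -0.16 and RFM1 by -0.07 and 0.37 in these conditions, none of them called. IME1, the meiotic initiator, differed by 0.45 and 1.14, IME2 by -0.12 and 0.42 and UME6 by -0.32 and 0.02, also not called, and RIM4 was below background in wild type and in nicotinamide. None of SIR2, SIR3, SIR4, HST2, HST3 and HST4 was called in either condition, by limma or at an unadjusted p under 0.05. For SIR2 the wild-type pairs themselves differed, with 8.96 and 8.65 (log2) in ML1 and 10.35 and 10.36 in ML8, a difference of -1.55 ± 0.19 (limma, adjusted p = 0.0248). Its difference from the pooled wild type in npt1Δ, 0.72 ± 0.45, carries that split in its error, so the missing call says little about SIR2. In pnc1Δ none of the 8 regulators was called and 1, NDT80 at 0.51 ± 0.18 (adjusted p = 0.197), had an unadjusted p under 0.05.

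The SUN family, to which YMR244W is related, has 4 other measured genes. Of SIM1, UTH1, NCA3 and SUN4, none was called by limma in npt1Δ, at differences of 0.98, 0.16, -0.60 and 0.25 (log2), and none had an unadjusted p under 0.05. In nicotinamide NCA3, which acts in mitochondrial gene expression, was called higher by 2.48 ± 0.46 (limma, adjusted p = 0.00392). SIM1, UTH1 and SUN4 differed there by 0.05, -0.29 and 0.10. Of all probe sets, 3.56% were called higher in npt1Δ and 8.88% in nicotinamide. NCA3 had 10.10 and 9.86 (log2) in nicotinamide, against 6.49, 7.37, 8.53 and 7.62 in wild type, so that both nicotinamide arrays lay above the wild-type range.

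The genes beside the 4 on their chromosomes were looked at in the same comparisons. Of the 8 nearest measured neighbours, none was called by limma in npt1Δ (1 at an unadjusted p under 0.05). In nicotinamide none was called higher and 1 was called lower (2 at an unadjusted p under 0.05). Of all probe sets, 3.56% were called higher and 0.637% lower in npt1Δ, and 8.88% higher and 7.02% lower in nicotinamide. Counts from 8 genes are too few to set the neighbours apart from those shares. YFL012W lies between IES1, a chromatin remodelling subunit gene, which differed by 0.16 ± 0.11 (log2) in npt1Δ and 0.09 ± 0.11 in nicotinamide, and the hexose transporter gene HXT10, which was below background in both conditions and in wild type. YMR244W lies between the zinc transporter gene ZRC1, at -0.12 ± 0.07 in npt1Δ and 0.11 ± 0.07 in nicotinamide, and the cytochrome oxidase assembly gene COA6, at 0.19 ± 0.09 and -0.32 ± 0.09. The fall of COA6 in nicotinamide was called (adjusted p = 0.0373).

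YGL138C lies between FLC3, at 0.17 ± 0.14 (log2) in npt1Δ and 0.08 ± 0.14 in nicotinamide, and the coatomer gene SEC27, at -0.05 ± 0.12 and -0.11 ± 0.12. YDR042C lies between the mitochondrial ribosomal protein gene RSM10, at 0.22 ± 0.09 and -0.24 ± 0.09, and the repressor gene NRG1, at 0.60 ± 0.57 and 0.13 ± 0.57, with 1 unmeasured gene between YDR042C and NRG1. None of these 4 neighbours was called. NRG1 had 6.29 on ML1 array A and 8.20, 8.38 and 8.59 on the other wild-type arrays, which gives its wide error. In pnc1Δ, where YDR042C rose, RSM10 differed by 0.06 ± 0.09 (adjusted p = 0.821) and NRG1 by 0.52 ± 0.57 (adjusted p = 0.721).

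**Figure D4:**
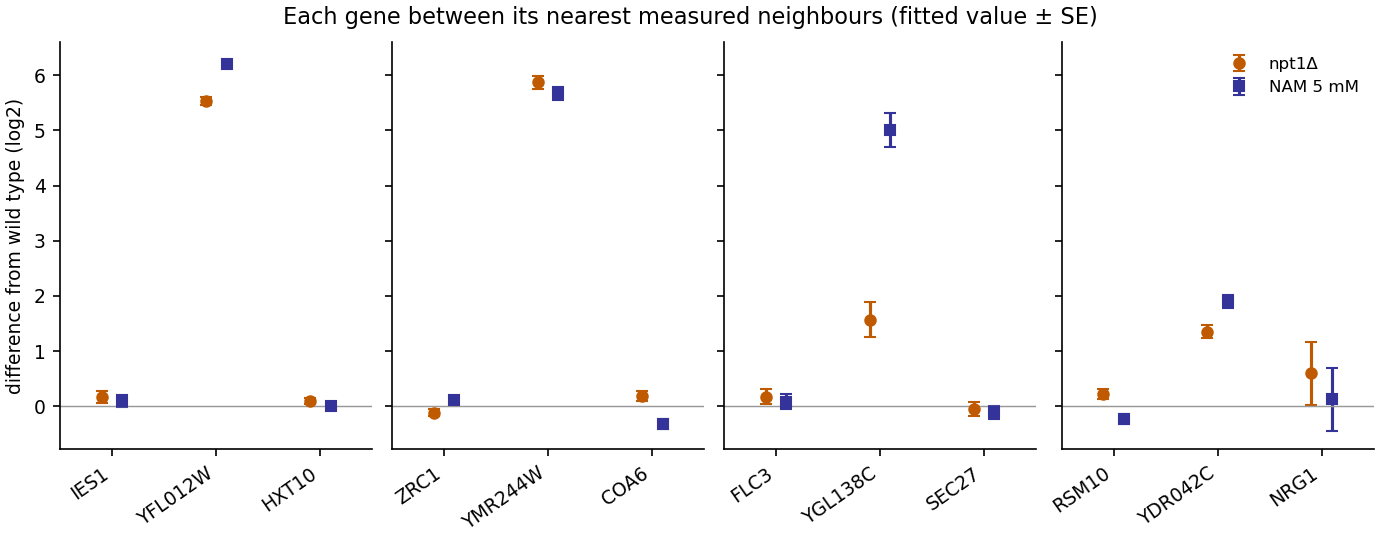
Difference from wild type (log2, vertical axis, fitted value ± SE of the limma contrast) for each of the 4 genes and its nearest measured neighbour on either side, in npt1Δ (circles) and nicotinamide (NAM, squares). The 4 genes are at 1.35 or more in both conditions and no neighbour exceeds 0.60, the value of NRG1 in npt1Δ, whose bar is wide. YMR244W and YGL138C were below background in wild type, so their points are fitted values and not measured sizes. HXT10 was below background in both conditions and in wild type.

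Markers of mating type and of sporulation were also counted in npt1Δ and nicotinamide. All 7 a-cell markers fell in nicotinamide, with a summed linear signal of 1447 to 8620 per array, against 81040 to 86806 in wild type. None of them was called in npt1Δ (limma, none at an unadjusted p under 0.05), with 81401 to 84854. All 8 haploid markers fell in nicotinamide as well, with 899 to 2670 there and 16471 to 16481 in npt1Δ, where none was called, against 16687 to 17982 in wild type. Of the 3 measured alpha-cell markers STE3 was called higher in both conditions. SAG1 differed by 0.12 (log2) in npt1Δ and 0.19 in nicotinamide and was not called, and HMLALPHA1 was below background on every array. The other listed alpha-cell markers, MFALPHA1 and MFALPHA2, were not measured. The 5 sporulation markers repeat genes counted above, NDT80 among the regulators and SPR3, SMK1, SPS4 and DIT1 among the middle sporulation genes. Of them, 3 were called higher in npt1Δ and all 5 in nicotinamide, where 3.56% and 8.88% of all probe sets were. SMK1, at -0.11 (log2), and SPS4, at 1.37, were not called in npt1Δ. No sporulation marker was below background on every array. The 5 summed to 320 to 350 in npt1Δ and 545 to 660 in nicotinamide, against 114 to 159 in wild type. The part of these shifts in the values of the 4 genes was not tested.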

How the data were processed

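The authors' deposited values are log2 signals from GCRMA, per the submitters' processing notes, on 14 arrays. GCRMA corrects background, normalizes arrays by quantiles and summarises probes. The sources used here do not give its version. The 4 genes, the lists and the tests were chosen with earlier results of these data known. Of 10928 probe sets, 5498 matched 1 gene of the S. cerevisiae reference R64 through the supplied array annotation and were tested, and the reference served only for names and gene order. Differences were tested with lmFit and eBayes of limma 3.58.1 in R 4.3.3 on all 14 arrays, with the 4 wild-type arrays as 1 group (8 residual degrees of freedom, prior of 2.01). P values were adjusted by Benjamini-Hochberg over all 5498, and a gene was called under 0.05. For ML1 against ML8, the fit kept 7 groups. A fold against a group wholly below the background limit was computed against that limit and is a lower bound. Genes were named by rule: the 4, their nearest measured neighbours, the 5 of highest Pearson correlation, the regulator and SUN lists, 4 middle sporulation genes and the 8 highest systematic-name genes per comparison. The fit was tested on simulated data. Alternatives were each wild-type pair alone, the replicate letter as a block, only the arrays compared, quantile normalization, median centring, a filter on dim probe sets, a floor, a variance trend, leaving out each array, and other measures of likeness. Array depth does not apply, and the number of arrays limits the precision. Background correction could not be varied from summarised values, and promoter sequences were not analysed here.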

Additional observations from a re-analysis of the deposited data

Results flagged for a closer look

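In 6 of 53 named probe sets a single wild-type array was an outlier by Dixon's criterion among the 4, where chance gives about 2.65, and none of the 4 genes was among them. ML1 array A was highest for IME2, at 6.51 (log2) against 6.06 to 6.12 on the others, highest for NPT1, at 12.54 against 12.34 to 12.36, and lowest for NRG1, at 6.29 against 8.20 to 8.59. ML8 array A was lowest for IME1, at 2.96 against 3.57 to 3.69, lowest for SPR3, at 2.57 against 2.82 to 2.87, and highest for YDL114W, at 2.34 against 2.28 to 2.29.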

How the results depend on the processing

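The 4 genes stayed higher in npt1Δ and nicotinamide under every alternative run. They were chosen for that rise on these same arrays, so this is a description and no test. YFL012W in npt1Δ was at 5.44 (log2) and YGL138C at 1.19 after quantile normalization, and with a floor at the background limit YMR244W was at 5.64 in npt1Δ and 5.44 in nicotinamide. Leaving out 1 array at a time gave 5.46 to 5.61 for YFL012W, 5.71 to 6.04 for YMR244W and 1.09 to 2.05 for YGL138C in npt1Δ. In nicotinamide the ranges were 6.06 to 6.33, 5.45 to 5.89 and 4.37 to 5.64. Except with the floor, the values of YMR244W and YGL138C were fitted against wild-type signals below background, so they are not measured sizes.

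In pnc1Δ YDR042C kept 0.69 but not its call with only the arrays compared, and was at 0.55 to 0.82 without single arrays. Differences near 0 changed sign: YFL012W was at -0.0024 in bna1Δ after quantile normalization, and in tna1Δ at 0.0050 after centring, 0.00036 against ML8 alone and -0.019 to 0.019 without single arrays. Between ML1 and ML8 it was at -0.0092 after centring and -0.039 to 0.040 without single arrays, and YDR042C at -0.033 to 0.23. Between bna1Δ and tna1Δ YDR042C was at -0.0056 after quantile normalization and -0.028 to 0.14 without single arrays.

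Counts of called probe sets moved more. With only the arrays compared they were 138 in npt1Δ, 533 in nicotinamide, 29 in pnc1Δ and 1 between ML1 and ML8, against 231, 874, 123 and 4. Against ML1 or ML8 alone they were 258 and 68 in pnc1Δ and 4 and 5 in bna1Δ, and against ML8 alone 4 in tna1Δ. A variance trend gave 2 in bna1Δ, against 1. Without single arrays they were 458 to 1156 in nicotinamide, 22 to 202 in pnc1Δ, 1 to 5 in tna1Δ, 2 to 5 between bna1Δ and tna1Δ, and 1 to 1132 between ML1 and ML8, the highest without ML1 array B. With the replicate letter as a block 240 were called in pnc1Δ, YDR042C included. Same-lettered arrays deviated together at a median correlation of 0.387 over 21 pairs of groups (-0.232 to 0.593), and the labels give the letters no meaning. Of the 20 places for like genes, 2 held under Spearman's correlation. The cause of these shifts was not tested.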
